A study of Mus musculus
Mus spretus with 18 samples.

Results

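The mouse genes for ubiquitin conjugating enzymes and for the largest family of deubiquitinases were followed through tissues, alleles and splicing inhibition. Members were taken by name, as all genes with a symbol that begins with Ube2 or with Usp and a digit, which gave 95 of the 38924 genes in the expression table, 39 of the first kind and 56 of the second. The rule also takes Usp6nl, a GTPase-activating protein for RAB proteins that only carries the name of a deubiquitinase, and Ube2cbp, an E3 ligase that binds a conjugating enzyme. Of the 95 genes, 79 had at least 1 skipped exon or retained intron in the splicing tables, and 16 had none, among them Usp29, Usp44, Ube2ql1 and the 5 Usp17l genes.

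Ubiquitin is a small protein that is joined to other proteins by a chain of enzymes. An E1 enzyme activates it, an E2 conjugating enzyme (the Ube2 genes) carries it, and an E3 ligase passes it to the target, where chains of different linkage send the target to the proteasome or change its activity. Deubiquitinases such as the ubiquitin-specific proteases (the Usp genes) cut it off again, and some E2 enzymes carry related modifiers (SUMO, NEDD8, ISG15) in its place.

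RNA was sequenced from F1 hybrids of female C57BL/6J and male SPRET/EiJ mice, so that each cell holds a C57BL/6J and a SPRET/EiJ allele in the same nucleus. Cerebral cortex, heart, kidney, lung, spleen and liver came from female hybrids aged 8 weeks, with 2 libraries per organ. The liver libraries had been made for an earlier study, from the same animals by the paper's account. The labels of the liver libraries give the strain as C57BL/7J x SPRET/EiJ and C57BL/8J x SPRET/EiJ, and the other 16 libraries carry C57BL/6J x SPRET/EiJ. Embryonic stem cells (ESC), labelled without an age, were 2 separate clones, and fibroblasts of 1 hybrid line were treated for 4 h with 0.1 μM pladienolide B (PladB), which binds the SF3B complex of the spliceosome, or with DMSO, its solvent, with 2 libraries per treatment. No gene was deleted and no transgene was used. The p-values rest on the spread between 2 animals, 2 clones or, in fibroblasts, 2 libraries of a single line. They also borrow spread from other exons or genes. Whether the fibroblast libraries of a treatment were separate cultures is not given.

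Junction reads over all skipped exons summed to between 46558287 and 129496306 per library in the 14 tissue and ESC libraries and to between 129067054 and 151755602 in the 4 fibroblast libraries. A member exon was covered by a median of 914 reads per library in tissues and 553 in fibroblasts, and by 229 and 170 reads per allele. The summed level of each marker list was highest in its own tissue, and the largest sums outside it were those of the liver list in cortex, 1420 and 1220 in TPM (transcripts scaled to a fixed library total), and of the fibroblast list in cortex, 986 and 1060. Blood genes summed to between 2460 and 5160 in heart, lung and spleen and to at most 753 elsewhere. Near-identical copies share reads, and levels of the Usp17l genes, of Ube2d2a and Ube2d2b and of Ube2n and Ube2nl are therefore uncertain.

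Expression was compared across tissues in TPM, which scales reads by transcript length, and tested with limma on log2(TPM + 0.1) in the genes with a TPM of at least 1 in 2 or more of the 14 libraries. Of the 95 members 90 were tested, 68 had at least 1 TPM in all 14 libraries, and 4 stayed under 1 in every library of the study, including Ube2d4 and Usp9y, listed at 0 in all 18. The F test across the 7 tissues passed for 90 of 90 members, as it did for 99.5% of all genes, so each tissue was set against the mean of the other 6 with a minimum difference of 1 on the log2 scale. In this contrast a gene that is high in a single tissue also comes out lower in the others.

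The most abundant member over the tissues was Ube2d3, an E2 enzyme that works with many E3 ligases, with a mean of 180 TPM. Its level ran from 124 TPM in a kidney library to 307 in an ESC library, and no tissue passed a difference of 1 on the log2 scale. Ube2s, which lengthens chains for the anaphase promoting complex, followed with a mean of 142, with 542 and 562 TPM in the ESC clones and 18.5 and 14.6 in liver. Ube2b, an E2 enzyme of postreplication DNA repair, had a mean of 132 and was highest in cortex at 226 and 223 TPM. Usp4, a deubiquitinase with spliceosome substrates, and Usp19, which is anchored in the endoplasmic reticulum, had means of 85.8 and 84.5. Usp4 and Ube2d3 had no tissue beyond the minimum difference, and Usp19 had only liver, at 27.1 and 30.4 TPM against at least 85.0 in every other library.

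Cortex and ESC held most of the higher calls. In cortex 39 of 90 members (43.3%) were higher and 9 (10%) lower, where 35.4% and 20.2% of all genes were. In ESC 44 of 90 (48.9%) were higher and 4 (4.44%) lower, against 35.7% and 25.0% of all genes. The median difference was 0.69 in cortex and 0.92 in ESC on the log2 scale for members and 0.38 and 0.34 for all genes. With each library scaled to the same upper quartile the counts became 25 higher and 10 lower in cortex, where 26.4% and 28.1% of all genes passed, and 31 higher and 8 lower in ESC, where 26.4% and 30.7% did.

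Cortex showed the sharpest restriction in Usp29, an imprinted deubiquitinase gene, at 54.5 and 59.3 TPM, with 1.73 and 2.19 in the ESC clones and at most 0.00935 in the other organs (log2 difference 8.41 ± 0.12, SE; adjusted p = 1.32e-11, limma). Ube2ql1, an E2 enzyme of the Ube2q kind, reached 164 and 200 TPM in cortex and 10.0 and 8.31 in heart, and did not exceed 3.07 in any other library (log2 difference 7.32 ± 0.21; adjusted p = 6.65e-10, limma). Both groups of libraries were far apart in each case. The genes with the lowest values in cortex relative to the other tissues were Ube2c, Ube2l6 and Usp18, with log2 differences of -3.20, -2.91 and -2.41, of which the Usp18 value was -2.16 and no longer called without the first cortex library.

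Heart was marked by Usp13, a deubiquitinase related to Usp5, at 96.8 and 104 TPM. Cortex followed with 23.1 and 24.9, and liver had 0.0213 and 0.0227 (log2 difference of heart 6.00 ± 0.12; adjusted p = 5.53e-10, limma). Usp28, which counters the degradation of MYC, was at 116 and 113 TPM in heart and at 102 and 79.7 in ESC. Usp2 was at 36.6 and 37.2 TPM in heart, close to 40.0 and 42.1 in cortex and above 25.9 and 27.7 in kidney. In heart 5 of 90 members were higher (5.56%) and 31 lower (34.4%), with 11.6% and 37.5% of all genes, and the median of all genes was itself lower by 0.71 on the log2 scale. With upper quartile scaling 9 were higher and 14 lower, where 17.3% and 25.4% of all genes passed.

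Ube2u, an E2 gene of low level, was the member most restricted to kidney and liver. It had 8.89 and 7.01 TPM in kidney, 6.2 and 6.18 in liver, and under 1 in every other library. It was the only 1 of 90 members higher in liver (1.11%, against 7.97% of all genes), and 54 (60%) were lower, against 67.4% of all genes, where the median of all genes was lower by 1.52. With upper quartile scaling 6 members were higher and 22 lower in liver, where 16.1% and 36.6% of all genes passed. Usp11, a nuclear deubiquitinase gene on the X chromosome, stood below that shift with 0.551 and 0.484 TPM in liver against 9.13 or more in every other library (log2 difference -5.43 ± 0.21; adjusted p = 5.2e-09, limma). In kidney 3 members were higher (3.33%) and 12 lower (13.3%), against 16.6% and 18.6% of all genes.

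In lung 3 of 90 members (3.33%) were higher, against 25.8% of all genes, and 13 (14.4%) were lower, against 14.9%. The 3 were Usp43, at 14.01 and 14.18 TPM against at most 6.76 elsewhere, and both genes of the ISG15 list. ISG15 is a ubiquitin-like protein made in the interferon response, Ube2l6 is the E2 enzyme that carries it and Usp18 the protease that removes it. Usp18 was at 26.3 and 53.8 TPM in lung, 38.7 and 44.6 in spleen, and at most 7.61 in the other libraries. Ube2l6 was at 45.3 and 60.03 in lung and 42.4 and 65.1 in spleen, and also at 56.9 and 49.6 in ESC, where Usp18 had 3.59 and 0.286. The ISG15 gene itself, Isg15, had 28.4 and 106 TPM in lung, 42.9 and 63.6 in spleen, and at most 18.5 elsewhere, and its E1 gene Uba7 had 33.9 and 44.5, 64.8 and 58.3, and at most 14.2. The summed level of the immune cell marker list was 3340 and 2230 TPM in spleen, 85.4 and 66.0 in lung and at most 26.8 in the other tissues, and its part in these values was not tested. In whole organs a change of the cell types present and a change of RNA per cell cannot be told apart.

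Spleen had 12 of 90 members higher (13.3%) and 13 lower (14.4%), against 26.7% and 22.1% of all genes, and with upper quartile scaling 5 higher and 15 lower, against 20.7% and 26.0%. The largest difference was in Ube2c, the E2 enzyme that starts chains for the anaphase promoting complex in mitosis, at 27.4 and 57.8 TPM, with 108 and 157 in ESC and at most 3.39 in every other organ library (log2 difference of spleen 4.08 ± 0.28; adjusted p = 7.21e-07, limma). Ube2t, the E2 enzyme of the Fanconi anaemia pathway of DNA repair, had the same order, with 9.39 and 14.05 TPM in spleen, 62.7 and 52.5 in ESC and at most 3.94 elsewhere. Of the list for mitosis, Usp37 was highest in ESC too, at 36.1 and 42.7 TPM.

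ESC had members that the organs lacked. Usp26, a deubiquitinase gene on the X chromosome, was at 45.4 and 29.5 TPM in the 2 clones and at most 0.0139 in any organ library. Ube2dnl1, a relative of the Ube2d genes, was at 18.9 and 27.7 TPM and at most 0.0154. Usp17lb was at 39.2 and 6.19 TPM in the clones and listed at 0 in every organ library, and the other 4 Usp17l genes were likewise several times higher in the first clone, Usp17le at 33.8 and 7.99. Usp9x was at 320 and 221 TPM in ESC and at most 55.2 in the organs, and Usp7, which acts on MDM2 and p53, was at 228 and 242 against at most 91.9. The genes lower in ESC were Usp18, Ube2j1 (13.8 and 7.72 TPM against 23.2 or more), Usp25 and Usp20. Without the second clone the log2 difference of Usp25 was -0.83 and was not called.

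**Figure D1:**
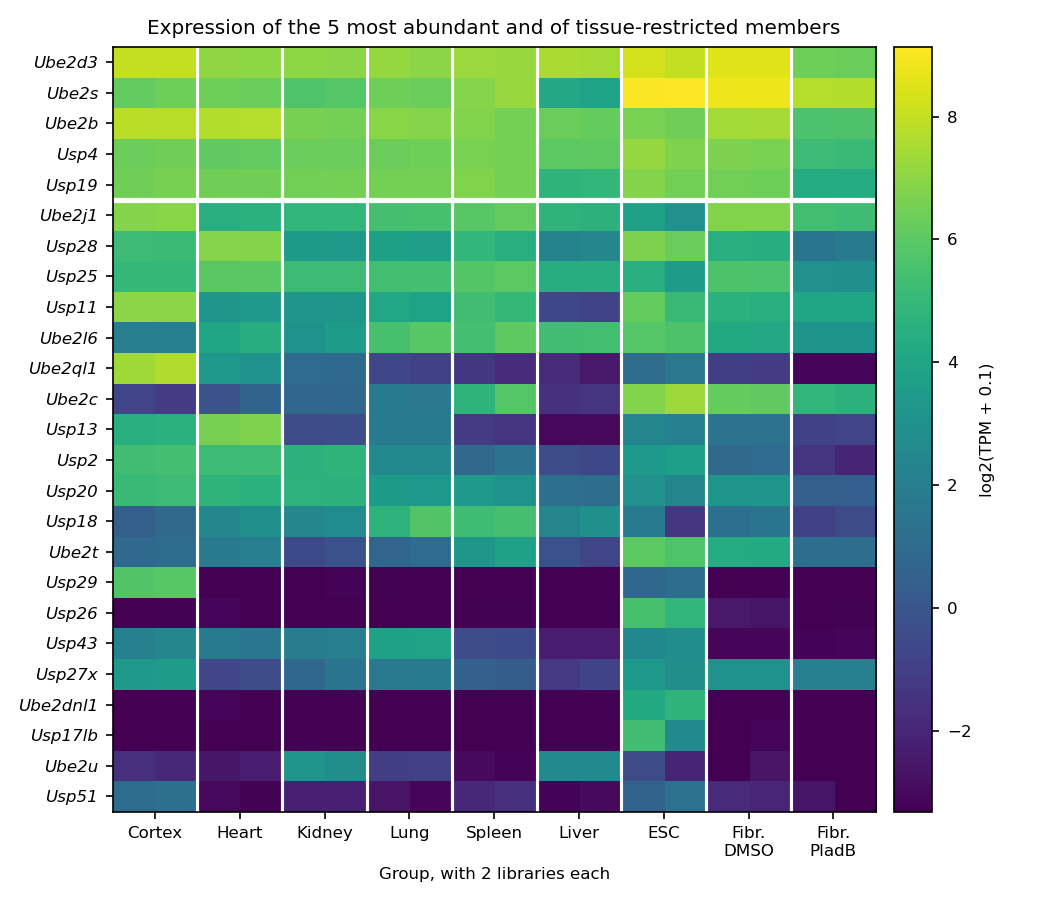
Level of the 5 members with the highest mean (above the white line) and of members with a tissue difference (below), as log2(TPM + 0.1), for each of the 2 libraries of each tissue and of DMSO and PladB fibroblasts. Usp29 and Ube2ql1 were high in cortex, Usp13 in heart, Usp18 in lung and spleen, and Usp26, Ube2dnl1 and Usp17lb in ESC, and the ESC clones lay far apart for Usp17lb (39.2 and 6.19 TPM) and Usp18 (3.59 and 0.286 TPM).

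Among the other genes of the pathway, Uba1, the main E1 of ubiquitin, was at 536 and 628 TPM in ESC and at 80.3 and 89.4 in liver. The ubiquitin precursor gene Rps27a, which encodes ubiquitin fused to a ribosomal protein, was at 638 and 654 TPM in ESC and at 604 and 503 in spleen. Uchl1, a deubiquitinase of neurons, was at 746 and 761 TPM in cortex and listed at 0 in both liver libraries. All 8 E1 genes, all 10 genes of ubiquitin and related modifiers and all 28 other deubiquitinases passed the F test, which 99.5% of all genes did.

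Exon use was measured as percent spliced in (PSI), the share of transcripts that hold the exon, from junction reads of inclusion and skipping divided by the effective length of each form. An exon counted as expressed in a tissue with 20 or more reads in both libraries. The switch score is the largest difference of mean PSI between expressing tissues, and an exon was called with an adjusted p under 0.05 (quasi-binomial F test with dispersions moderated by limma) and a switch score of at least 0.1. Of 329 member exons in 72 genes, 19 (5.78%) were called, in 16 genes, where 8.89% of all exons were. With switch scores of at least 0.2, 0.3 and 0.5 the member counts were 12, 9 and 4, or 3.65%, 2.74% and 1.22%, against 6.65%, 4.99% and 2.78% of all exons. Most member exons were constitutive, with 276 of 329 above a mean PSI of 0.9 in every expressing tissue. Of the 19 called exons 8 (42.1%) had their lowest inclusion in cortex and 6 (31.6%) their highest, against 26.9% and 32.9% of all called exons, and 7 (36.8%) were highest in liver, against 14.6%. A length that is a multiple of 3, which keeps the reading frame, was found in 10 of the 19 called exons and 124 of the 329 tested, and in 57.6% of all called and 41.5% of all tested exons. None of the called member exons was 30 bp or shorter, and 3 of the 329 tested were, against 9.26% of all called and 1.93% of all tested exons. Positions are given in mm10.

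The deubiquitinase exon with the largest switch score was a 36 bp exon of Usp34 (chr11:23362577-23362612), a very large protease that acts in WNT signalling. Its PSI was 0.657 and 0.742 in cortex, 0.0256 and 0.146 in spleen and 0.100 and 0.0919 in ESC, and the other tissues had too few reads. Cortex did not overlap the others (switch score 0.614, adjusted p = 4.12e-08). The second Usp34 exon, of 125 bp (chr11:23473170-23473294), ran the other way. It had 0.302 and 0.261 in cortex, 0.588 and 0.521 in heart, and from 0.674 to 0.881 in the remaining tissues, with ESC at 0.830 and 0.881 (switch score 0.574, adjusted p = 1.31e-09).

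Cortex stood apart in 3 more deubiquitinases. Usp14, which sits on the proteasome, held its 105 bp exon in 0.519 and 0.517 of transcripts in cortex and in at least 0.914 in each of the 12 other libraries (switch score 0.480, adjusted p = 1.71e-11). Cortex and ESC also had the highest Usp14 levels, 80.8 and 85.2 TPM and 85.3 and 86.7, and ESC held the exon at 0.983 and 0.944. Usp16, a protease for ubiquitin on histone H2A, had 0.612 and 0.676 in cortex for a 79 bp exon (chr16:87473107-87473185) and 0.870 to 0.992 elsewhere (switch score 0.343, adjusted p = 6.2e-06). A 66 bp exon of Usp37 (chr1:74459915-74459980) was highest in cortex, 0.856 and 0.770, and lowest in spleen, 0.378 and 0.427, with heart and lung libraries that lay up to 0.129 apart (adjusted p = 0.000694).

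In Usp54 a 171 bp exon (chr14:20581457-20581627) was used in cortex (0.744 and 0.743) and heart (0.732 and 0.719) and little in kidney, lung, spleen and ESC, where PSI lay between 0.0794 and 0.324. Its 2 spleen libraries, with 47 and 34 reads, differed by 0.245, the widest gap among the 15 named exons, whose median gap was 0.0215. A 1397 bp exon of the same gene (chr14:20560846-20562242) was lowest in heart, 0.788 and 0.779, with cortex at 0.895 and 0.9 and lung and spleen at 0.982 or more. Usp13 held an 89 bp exon (chr3:32911573-32911661) at 1.00 and 0.999 in heart and 0.809 and 0.840 in ESC, and its lung libraries had 0.803 and 1.00.

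The 141 bp exon of Usp4 (chr9:108365830-108365970) separated lung from the rest. It was included at 0.464 and 0.471 in lung, 0.667 and 0.696 in liver, 0.793 to 0.831 in spleen and kidney, and 0.905 or more in heart, cortex and ESC (switch score 0.518, adjusted p = 4.82e-09). No other tissue overlapped lung, and the gene's level in lung (81.7 and 82.7 TPM) lay within the range of the others. ESC stood apart in Usp48, a nuclear deubiquitinase, with 0.521 and 0.576 for a 54 bp exon (chr4:137636934-137636987) against 0.102 to 0.268 in the organs (switch score 0.428, adjusted p = 4e-09).

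Among E2 enzymes the largest switch score was in Ube2j1, which is anchored in the membrane of the endoplasmic reticulum and serves the degradation of misfolded proteins. Its 120 bp exon (chr4:33045080-33045199) had a PSI of 0.442 and 0.417 in cortex, 0.565 and 0.602 in heart, 0.662 and 0.697 in lung, 0.804 and 0.796 in kidney, 0.807 and 0.815 in spleen and 0.871 and 0.854 in liver (switch score 0.433, adjusted p = 5.44e-09). Kidney and spleen were next to each other, and the ESC clones, at 0.674 and 0.831, spanned lung to spleen. The gene's level ran in another order, highest in cortex at 114 and 121 TPM.

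Ube2j2, the sister enzyme of Ube2j1, had a 163 bp exon (chr4:155946255-155946417) with 0.606 and 0.623 in spleen and 0.860 and 0.883 in liver (adjusted p = 0.000258). Ube2q2 used a 105 bp exon (chr9:55168203-55168307) at 0.776 and 0.737 in cortex and 0.873 or more elsewhere (adjusted p = 1.41e-06). In Ube2g1, an E2 enzyme that builds chains linked through lysine 48, a 116 bp exon (chr11:72645537-72645652) was used at 0.232 and 0.234 in cortex and at most 0.103 in any other tissue (adjusted p = 3.07e-06). Ube2v1, the inactive partner that lets Ube2n build chains linked through lysine 63, used a 119 bp exon (chr2:167629170-167629288) at 0.178 and 0.227 in liver, 0.181 and 0.153 in kidney and at most 0.105 elsewhere (adjusted p = 3.83e-06). Cortex was thus set apart from every other tissue in Ube2q2 and Ube2g1, while liver and kidney overlapped in Ube2v1. The 4 called exons with smaller scores, between 0.101 and 0.118, were in Usp3, Usp25, Ube2e2 and Usp4.

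**Figure D2:**
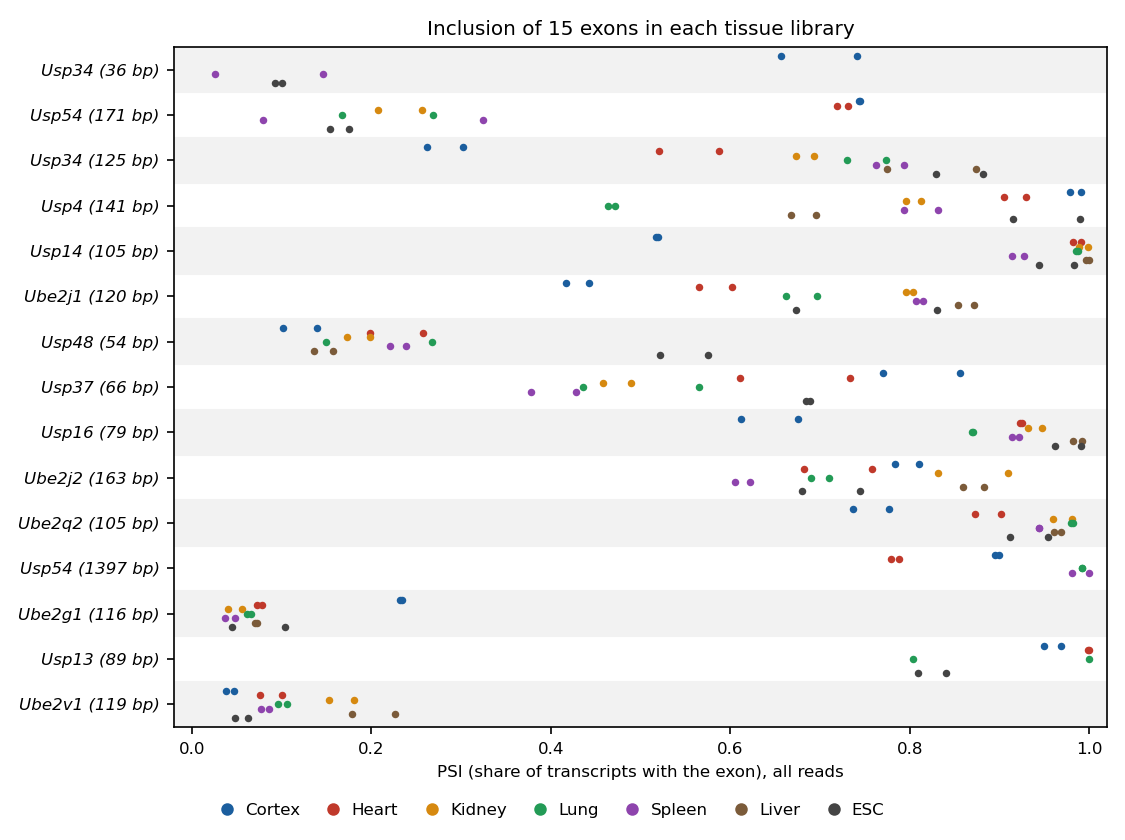
PSI from all reads, the share of transcripts with the exon, of the 15 named member exons in every tissue library with 20 or more reads, 2 points per tissue. Cortex lies alone at the low end for Usp14 (0.519 and 0.517), Ube2j1, Usp16 and the 125 bp exon of Usp34, and alone at the high end for the 36 bp exon of Usp34 and for Ube2g1.

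Alleles were compared to ask how far exon use differs when both genomes share the same nucleus. The difference (ΔPSI) is C57BL/6J minus SPRET/EiJ, from reads assigned to an allele, with 20 or more reads on each allele in each library, and was called with an adjusted p under 0.05 and a size of at least 0.1. In the 7 tissues 6 of 908 pairs of a member exon and a tissue were called (0.661%, against 1.51% of all pairs), and all 6 were the 120 bp exon of Ube2j1. One member exon was called in each organ, of 67 to 145 tested. That was 1.49% in liver (all exons 1.65%), 1.09% in heart (1.94%), 0.847% in lung (1.92%), 0.741% in both kidney (1.99%) and spleen (1.75%), and 0.69% in cortex (1.72%). In ESC 0 of 216 were called (quasi-binomial test, 8 at an unadjusted p under 0.05), against 0.188% of all exons.

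The C57BL/6J allele of Ube2j1 held the exon more often than the SPRET/EiJ allele in each library. In cortex the C57BL/6J allele had 0.554 and 0.501 and the SPRET/EiJ allele 0.290 and 0.285, a ΔPSI of 0.240 (adjusted p = 0.00576). In lung, where the gap was widest, the values were 0.852 and 0.882 against 0.462 and 0.437, a ΔPSI of 0.417 (adjusted p = 0.000817). The alleles did not overlap within either tissue.

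Kidney gave 0.932 and 0.935 against 0.595 and 0.614 (ΔPSI 0.329, adjusted p = 0.00124), and spleen 0.913 and 0.928 against 0.649 and 0.625 (ΔPSI 0.283, adjusted p = 0.00169). Heart gave 0.75 and 0.724 against 0.368 and 0.423 (ΔPSI 0.341, adjusted p = 0.00853). Liver gave 0.951 and 0.969 against 0.757 and 0.688 (ΔPSI 0.238, adjusted p = 0.0174). Cortex was the lowest and liver the highest tissue on each allele. In ESC the clones had 0.777 and 0.958 against 0.476 and 0.552, a ΔPSI of 0.354 on 45 to 175 reads per allele, which was not called (adjusted p = 0.828).

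Both alleles come from the same library. When that library entered the model as a replicate block, 10 pairs in 4 exons were called, against 2.84% of all pairs. The ESC pair of Ube2j1 was then called (adjusted p = 0.0167, with block), and so were 3 pairs in which the SPRET/EiJ allele held the exon more often. In ESC a 131 bp exon of Usp48 (chr4:137637760-137637890) had 0.760 and 0.803 on the C57BL/6J and 0.985 and 1.00 on the SPRET/EiJ allele (adjusted p = 7.49e-07 with block, 0.244 without), and a 126 bp form that overlaps it had 0.521 and 0.373 against 0.944 and 1.00 (adjusted p = 0.000383 with block). In kidney a 141 bp exon of Ube2n (chr10:95541638-95541778), the E2 enzyme of chains linked through lysine 63, had 0.857 and 0.741 against 0.984 and 0.959, on 26 and 47 C57BL/6J reads and 361 and 381 SPRET/EiJ reads (adjusted p = 0.0229 with block, 0.143 without).

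Of the 15 exons named for their tissue pattern 10 had an allelic value in at least 1 tissue. Besides Ube2j1, the 163 bp exon of Ube2j2 had a lower value on the C57BL/6J allele in all 7 tissues, with ΔPSI from -0.148 in heart to -0.0409 in cortex, none of which was called (lowest adjusted p 0.386, and 0.0573 with the library as block). DMSO fibroblasts had the other sign, with 0.490 and 0.454 on the C57BL/6J and 0.437 and 0.363 on the SPRET/EiJ allele (ΔPSI 0.0722). After PladB its ΔPSI was 0.0092. For the 54 bp exon of Usp48 ΔPSI lay between -0.0463 and 0.0701 in the 7 tissues, none called.

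**Figure D3:**
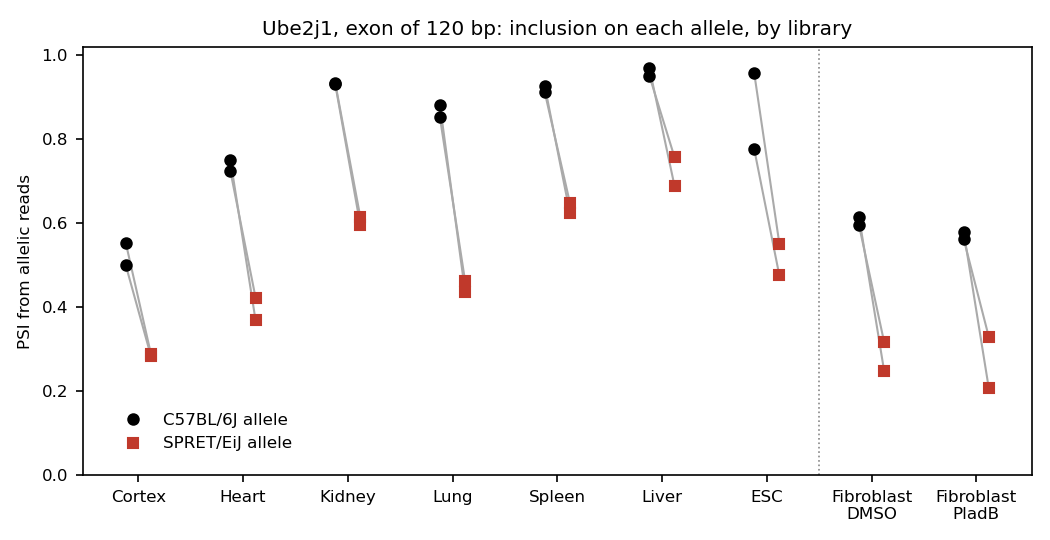
PSI of the 120 bp exon of Ube2j1 from allelic reads, C57BL/6J allele (circles) and SPRET/EiJ allele (squares), with a grey line joining the alleles of each library, for 2 libraries per group. The C57BL/6J allele lies above the SPRET/EiJ allele in every library, by a mean of 0.238 in liver to 0.417 in lung, while both shift with the tissue.

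In fibroblasts the Ube2j1 exon showed the same sign. After DMSO the C57BL/6J allele had 0.596 and 0.616 and the SPRET/EiJ allele 0.317 and 0.249 (ΔPSI 0.323, adjusted p = 0.000137), and after PladB 0.562 and 0.579 against 0.329 and 0.206 (ΔPSI 0.303, adjusted p = 0.000516). Neither treatment brought the alleles to overlap.

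After DMSO 2 of 192 member exons (1.04%, against 2.19% of all) were called. The other one was a 68 bp exon of Ube2f (chr1:91253760-91253827), an E2 enzyme for NEDD8, with 0.517 and 0.608 on the C57BL/6J allele and 0.0492 and 0 on the SPRET/EiJ allele, on 43 and 25 SPRET/EiJ reads (ΔPSI 0.538, adjusted p = 0.00616). After PladB 3 of 212 (1.42%, against 1.91%) were called, Ube2j1 and 2 exons of Usp12, a deubiquitinase that needs WDR48 for its activity. The 79 bp exon (chr5:146739100-146739178) had 0.884 and 0.845 on the C57BL/6J and 0.426 and 0.405 on the SPRET/EiJ allele (ΔPSI 0.449, adjusted p = 0.00532). The 214 bp exon (chr5:146763201-146763414) had 0.625 and 0.314 against 0.983 and 0.927 (ΔPSI -0.486, adjusted p = 0.00449). The 2 Usp12 exons thus differed in opposite directions between the alleles. In DMSO all 4 values of the 79 bp exon were 0.995 or more, and the event of the 214 bp exon with the most reads after PladB, which gave the ΔPSI of -0.486, was not the one with the most reads in DMSO. Between flanking exons that were the same in both treatments, this exon had 0.940 and 0.922 against 1.00 and 1.00 in DMSO (ΔPSI -0.0692) and 0.811 and 0.864 against 1.00 and 1.00 after PladB (ΔPSI -0.162). The change of -0.0932 was not called (adjusted p = 0.998, quasi-binomial interaction test).

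Whether PladB changed the allelic difference was tested in the 94 member exons with enough reads on both alleles in all 4 libraries. One was called (1.06%, against 0.0481% of all exons), the 141 bp exon of Ube2n. In DMSO its C57BL/6J allele had 0.979 and 0.987 and its SPRET/EiJ allele 0.945 and 0.938, and after PladB 0.841 and 0.793 against 0.912 and 0.901. The ΔPSI went from 0.0414 to -0.0891, a change of -0.130 (adjusted p = 0.0203), so that the sign of the difference turned. With the library as a replicate block it was not called (adjusted p = 0.469), and 0 member exons were (quasi-binomial test, 10 at an unadjusted p under 0.05), nor was any other exon. The 79 bp exon of Usp12 had the largest change, 0.452, which was not called (adjusted p = 0.888). The median size of ΔPSI over the 94 exons was 0.0047 in DMSO and 0.025 after PladB, and over all exons 0.0054 and 0.0132. In all reads, junction reads after PladB were a median of 0.237 of their DMSO number over member exons and 0.368 over all exons. The part of this loss of depth in the sizes of ΔPSI was not tested.

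Exon inclusion after PladB was compared in 430 member exons of 69 genes with 20 or more reads in each of the 4 fibroblast libraries. Inclusion was lower by at least 0.1 in 27 (6.28%, against 6.43% of all exons) and higher in 0 (against 0.147%; quasi-binomial test, 4 at an unadjusted p under 0.05). The 27 exons lie in 17 genes, and 25 of them do not overlap each other. Before treatment 24 of the 27 had a mean PSI over 0.9, as had 406 of the 430 tested. Junction reads over a member exon fell to a median of 0.237 of their DMSO number and over all exons to 0.368, and to 0.163 over the called member exons, and the part of this loss of depth in the result was not tested. Without moderation of the dispersion 0 of the 27 were called (61 lower at an unadjusted p under 0.05), as were 0.0% of all exons.

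With each exon read by its event with the most reads, the exon with the largest loss was in Usp6nl, the RAB regulator, where a 68 bp exon (chr2:6391055-6391122) went from 1.00 in both DMSO libraries to 0.147 and 0.297, on 28 to 71 reads (adjusted p = 0.00611). Among deubiquitinases, Usp38 led with a 102 bp exon (chr8:81001053-81001154) that went from 1.00 and 1.00 to 0.505 and 0.395 (adjusted p = 0.000695). A 107 bp exon of the same gene (chr8:80987487-80987593) went from 0.995 and 1.00 to 0.700 and 0.637 (adjusted p = 0.00476). No PladB library reached the DMSO values, and 3 of the 5 tested Usp38 exons were called. The choice of event mattered for a 69 bp exon of Usp10 (chr8:119931849-119931917). By its event with the most reads it had 0.999 and 0.994 in DMSO and 1.00 and 1.00 after PladB. By junctions to another downstream exon, in allelic reads, it had 1.00 and 1.00 on the C57BL/6J allele and 0.968 and 1.00 on the SPRET/EiJ allele in DMSO, and after PladB 0.294 and 0.346 on the first and 0.267 and 0.287 on the second, on 45 to 119 reads.

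Usp12 lost its 79 bp exon from 0.997 and 1.00 to 0.572 and 0.539 (adjusted p = 0.000386) and an 81 bp exon (chr5:146768937-146769017) from 1.00 and 0.998 to 0.733 and 0.801 (adjusted p = 0.00105). Usp32 held a 93 bp exon (chr11:84987269-84987361) at 0.989 and 0.983 and then at 0.678 and 0.753 (adjusted p = 0.00374). Usp47 held a 48 bp exon (chr7:112108436-112108483) at 1.00 and then at 0.743 and 0.817 (adjusted p = 0.00309). These 3 genes were covered by 48 or more reads per library, and their groups did not overlap.

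Replicates were less close in 2 others. A 58 bp exon of Usp33 (chr3:152358641-152358698) went from 1.00 to 0.591 and 0.871 (adjusted p = 0.0205), and a 150 bp exon of Usp53 (chr3:122952557-122952706) from 1.00 to 0.968 and 0.567 (adjusted p = 0.0275). Without the second PladB library the Usp53 value was -0.0317 and was not called. The only E2 gene among the 10 largest was Ube2o, a large enzyme that acts as both E2 and E3, with a 151 bp exon (chr11:116545046-116545196) at 1.00 in DMSO and 0.667 and 0.724 after PladB, on 25 reads in each PladB library (adjusted p = 0.00609).

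Of the 15 exons with a tissue pattern 11 were tested in fibroblasts, and 1 was called after PladB, in Usp4. Its 141 bp exon, the one that was lowest in lung, went from 0.629 and 0.624 to 0.529 and 0.492 (ΔPSI -0.116, adjusted p = 0.0134). Among the 10 that were not called, Ube2j1 had 0.526 and 0.514 in DMSO and 0.529 and 0.518 after PladB (ΔPSI 0.0038, adjusted p = 0.875).

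**Figure D4:**
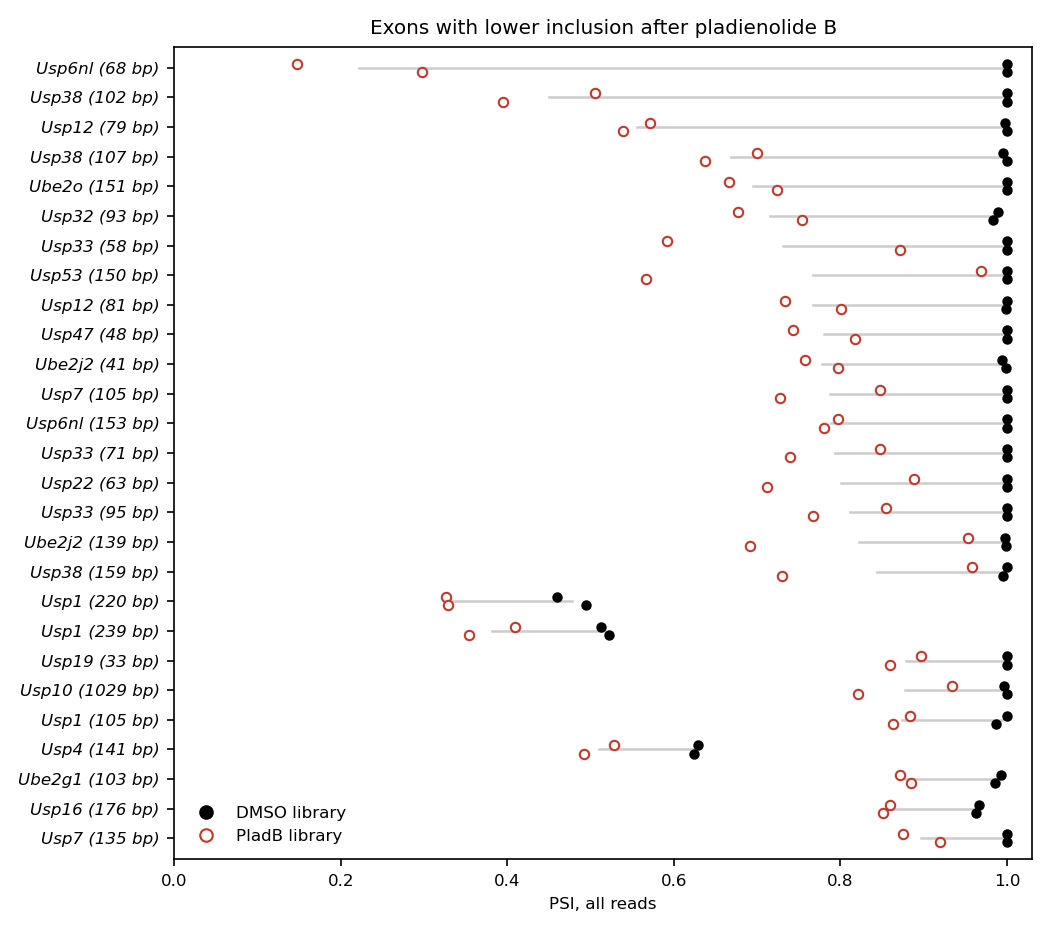
PSI from all reads of the 27 member exons with lower inclusion after PladB, in the 2 DMSO (filled) and 2 PladB (open) fibroblast libraries, with a grey line between the means. Of the 27 exons, 24 start above 0.9, and the PladB libraries lie lowest for Usp6nl (0.147 and 0.297) and farthest apart for Usp53 (0.968 and 0.567).

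Retained introns were deposited for few members, 10 events in 9 genes, of which 8 were autosomal and were tested. Retention was higher after PladB in 3 of 8 (37.5%, against 35.2% of all introns) and lower in 0 (against 3.0%; quasi-binomial test, 1 at an unadjusted p under 0.05, in Usp5, where the value fell by 0.0206). The largest was a 496 bp intron of Usp42 (chr5:143716081-143716576), at 0.0346 in both DMSO libraries and 0.804 and 0.881 after PladB (adjusted p = 5.7e-10). In Usp7 a 457 bp intron (chr16:8697995-8698451) went from 0.0203 and 0.0232 to 0.220 and 0.174 (adjusted p = 5.71e-09). It abuts the 135 bp exon of Usp7 that starts at 8698452 and was among those with lower inclusion, at 1.00 in DMSO and 0.875 and 0.919 after PladB. In Usp3, a protease for ubiquitin on histone H2A, a 222 bp intron (chr9:66520387-66520608) went from 0.0364 and 0.0362 to 0.136 and 0.263 (adjusted p = 9.81e-05), and without the second PladB library the difference was 0.0994, just under the minimum. The other introns, in Ube2m, Usp45, Ube2d1 and Usp35, differed by -0.0028 to 0.116 and were not called.

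Expression after PladB was tested in the 76 members with a TPM of at least 1 in 2 or more fibroblast libraries. TPM was lower in 75 of 76 (98.7%, against 73.4% of all genes) and higher in 0 (against 15.6%; limma, 0 at an unadjusted p under 0.05). The median log2 change was -1.79 for members and -1.15 for all genes, so members lay 0.63 below all genes, and with upper quartile scaling, which moved these medians to -0.88 and -0.26, 0.62 below. Of the 76, 58 lay below the median of all genes, 39 of the 44 Usp genes and 19 of the 32 Ube2 genes, and the medians of the kinds were -2.05 and -1.53. With upper quartile scaling 61 members were lower and 13 higher, where 50.8% and 38.1% of all genes were. The members were long genes, with a median span of 44873 bp against 19933 bp for all genes tested, and the log2 change fell with span across all genes (Spearman's rho -0.39, n = 12947 genes) and less so across members (-0.18, n = 76 genes), whose part in the result was not tested.

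The 4 largest changes were in E2 enzymes. Ube2g2, which serves the degradation of proteins of the endoplasmic reticulum, went from 53.6 and 56.4 TPM to 4.20 and 4.20 (log2 change -3.68 ± 0.05, SE). Its relative Ube2g1 went from 50.8 and 51.4 to 5.01 and 6.42 (-3.15 ± 0.12). Ube2o went from 26.0 and 22.9 to 2.27 and 2.60 (-3.28 ± 0.10), and Ube2t from 20.2 and 19.4 to 2.14 and 2.17 (-3.14 ± 0.06). Among deubiquitinases the largest changes were in Usp54 (-2.98 ± 0.09), Usp30, which is anchored in mitochondria (-2.93 ± 0.08), Usp10 (-2.91 ± 0.07) and Usp28 (-2.79 ± 0.10). No PladB library of these 8 genes came near a DMSO library, and each had an adjusted p of at most 1.2e-05 (limma).

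The members of the degradation list of the endoplasmic reticulum (Ube2j1, Ube2j2, Ube2g1, Ube2g2, Usp19, Usp25) were lower in 6 of 6, with a median of -2.72, and those of the p53 and MDM2 list (Usp7, Usp10, Usp2) in 3 of 3, with -2.75. This last median is the value of Usp2 (SE 0.24), which went from 1.91 and 1.95 TPM to 0.266 and 0.148, close to the 0.1 added before the logarithm. Usp10 was at -2.91 and Usp7 at -1.48. Histone deubiquitinases were lower in 5 of 5, with -2.13, genes of DNA damage in 4 of 4, with -1.70, the ISG15 genes in 2 of 2, with -1.58, the spliceosome list (Usp4, Usp15, Usp39) in 3 of 3, with -1.49, and genes of mitosis in 3 of 3, with -1.35. Near or above the median of all genes were the broad E2 enzymes (-1.13) and Ube2n, Ube2v1 and Ube2v2 of the chains linked through lysine 63 (-0.38). Each of these lists was lower in all its tested members, which 98.7% of the members were.

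The smallest changes were in Usp53, from 16.1 and 16.2 TPM to 13.7 and 16.2, whose libraries overlapped (log2 change -0.11 ± 0.09, adjusted p = 0.288, limma), and Ube2l3, an E2 enzyme of HECT and RBR ligases, from 127 and 127 to 112 and 110 (-0.20 ± 0.03, adjusted p = 0.00363, limma). Ube2v1 (-0.33) and Ube2n (-0.38) also changed little, and these 4 were among the 13 members that were higher with upper quartile scaling, by 0.79, 0.72, 0.58 and 0.54 on the log2 scale in that order. The Usp53 value was 0.0061 without the first PladB library and -0.23, then called, without the second, and Ube2l3 was not called in a fit of all 18 libraries. Of these 13, 10 were Ube2 genes.

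**Figure D5:**
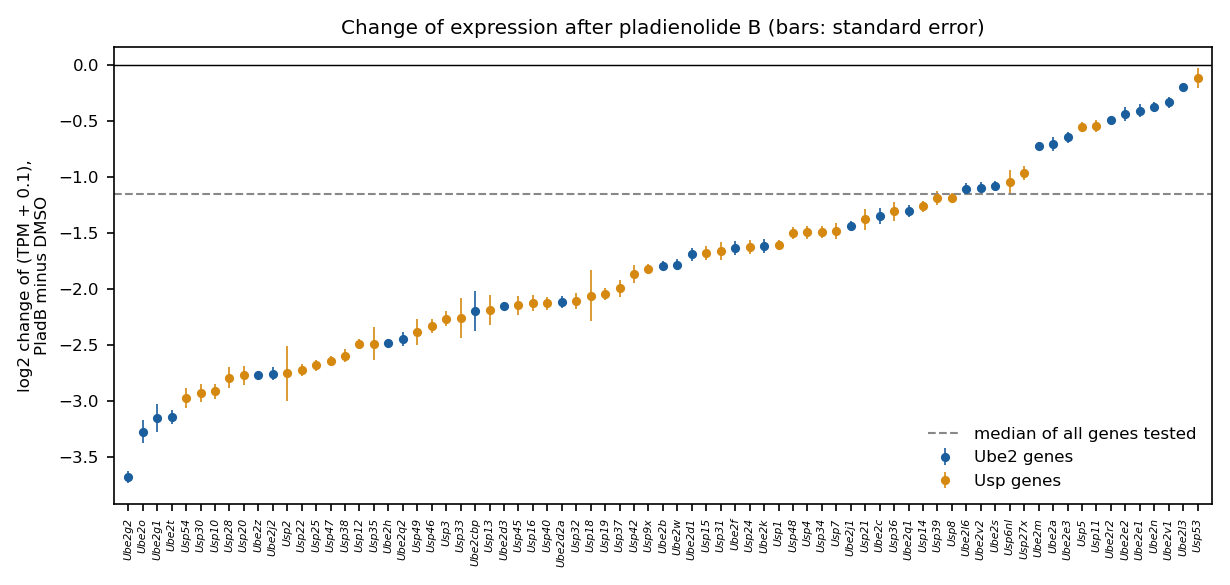
Change of log2(TPM + 0.1) after PladB in fibroblasts, PladB minus DMSO, for 75 of the 76 tested members in ascending order, with standard errors from 2 libraries per treatment and the median of all genes as a dashed line. Of these members, 58 lie below the median of all genes (-1.15), and none lies above 0.

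Outside the Ube2 and Usp genes, the pathway lists held rises as well as falls. Of all genes tested, 73.4% were lower and 15.6% higher, with a median log2 change of -1.15. Of 8 E1 genes 6 were lower and 0 higher, with a median of -1.25, and Uba1 (-0.11 ± 0.05, adjusted p = 0.0742) and Sae1 (-0.13 ± 0.05, adjusted p = 0.0745, limma) did not pass. Of 10 genes of ubiquitin and related modifiers 4 were lower and 4 higher, with a median of -0.04. One of the higher was Rps27a, from 200 and 225 TPM to 401 and 404, and Nedd8 was another of them. Of 27 other deubiquitinases 23 were lower and 4 higher, with a median of -1.26, and the 4 were Tnfaip3, Uchl1, Yod1 and Otud1. Tnfaip3, a deubiquitinase that restrains NF-κB signalling, went from 10.1 and 9.97 TPM to 309 and 335 (log2 change 4.99 ± 0.05, adjusted p = 3.81e-06, limma).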

How the data were processed

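The authors aligned strand-specific RNA-seq reads with HISAT2 2.0.1 to the C57BL/6J (mm10) and SPRET/EiJ genomes, gave each read to the genome with fewer mismatches, and counted junction reads per event with rMATS; reads of heart, kidney and cortex had been shortened. The deposited files hold whole-number inclusion and skipping counts of both libraries and, as a score per the file headers, the effective length of each form. Their IncLevel, PValue and FDR columns, the authors' own comparisons, were not used. TPM values were deposited by the authors from featureCounts, with fragments over several genes split.

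PSI was computed with an event of the most reads standing for each exon, 20 or more reads per library (per allele for alleles), and allelic within 0.1 of all-read PSI. Counts were fitted with a quasi-binomial model (Python 3.11.15, numpy 2.4.6), dispersions were moderated with limma 3.58.1 (R 4.3.3), and p-values adjusted by Benjamini-Hochberg over all autosomal events. TPM was tested with limma and trend. Scripts were tested on simulated data. Gene spans came from RefSeq (GRCm38.p6), which matched 94 of 95 members. Other dispersions, read and size minimums, scalings, blocks and left-out libraries were tried. The organs came from 2 mice, with liver data of the same animals by the paper's account, but no source used here ties a library number to an animal. The deviations of equally numbered libraries correlated by -0.109 to 0.173, over 0.1 for 4 of 21 pairs of tissues in TPM and 0 of 21 in PSI, and libraries were not treated as pairs, while the alleles of a library deviated together outside PladB (0.107 to 0.712). PSI values are given without intervals, since an interval from read counts alone would cover counting error only. The text names the 15 called tissue exons of largest switch score, every called allelic exon, the 10 exons and all introns called after PladB, and genes by size of difference, level and role list. Members and lists were chosen with earlier results of these data known. Some genes are not reported here.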

Additional observations from a re-analysis of the deposited data

Results flagged for a closer look

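The allelic difference of the 141 bp exon of Ube2n changed with treatment, from 0.0414 in DMSO to -0.0891 after PladB (C57BL/6J minus SPRET/EiJ), a change of -0.1304 by the test of the difference itself, with -0.104 and -0.157 in the replicates of equal number. The exon was covered by 935 to 2714 reads per allele and library. The adjusted p was 0.0203 without and 0.469 with the library as replicate block, and the cause was not tested.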

How the results depend on the processing

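A minimum switch score of 0.2 left 12 of 19 exons across tissues, and a minimum change of 0.2 left 14 of 27 exons and 1 of 3 introns after PladB and 0 of 1 changed allelic differences. The library as replicate block gave 10 called allelic pairs in tissues in place of 6 and 0 changed allelic differences. A minimum of 50 reads left 1 of 2 allelic exons in DMSO. Without moderated dispersions 0 exons were lower after PladB, and upper quartile scaling gave 13 genes higher in place of 0. Causes were not tested. Replicate numbers as a block, which are not known to pair these libraries, gave 24 exons across tissues, 28 lower exons, 3 introns and 75 lower genes. The shares of all exons, introns and genes called with this block are not given here. These counts therefore do not tell a change in members from a general change in calls. Leaving out 1 library leaves a single library in its group, and counts of calls from those fits are not given here. The allelic tests were not refitted in this way. Each allelic difference already called (6, 2, 3 and 1) kept its sign and a size of at least 0.1 in either replicate alone. That check could not add a call and says nothing on the test. Of 1328 values of named results under alternatives 1295 kept direction and call. Of 23 that lost the call, 10 were exons without moderation, 6 were under a minimum of 0.2 (exons of Ube2g1, Usp13, Ube2v1 and Ube2n, introns of Usp7 and Usp3), 1 was Ube2n with the library block, and 2 were the Usp53 exon and Usp3 intron without the second PladB library. The other 4 were TPM values, of Usp18 in cortex and Usp25 in ESC without 1 library, Usp51 in lung with pseudocount 1 and Ube2l3 in a fit of all libraries. The 5 that gained it were the 4 allelic pairs of the block and Usp53 TPM (-0.235) without the second PladB library. The 5 reversed were PladB log2 changes, with upper quartile scaling Usp53 (0.79), Ube2l3 (0.72), Ube2v1 (0.58) and Ube2n (0.54), and Usp53 (0.0061) without the first PladB library.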

Other observations

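Members on the X chromosome were left out of the splicing tests above, since the study left out genes on the sex chromosomes. Of 13 tissue exons on it 1 was called (7.69%, against 8.89% of all autosomal exons), a 71 bp exon of Usp11 (chrX:20706912-20706982). Its PSI was 0.0145 and 0.0081 in cortex, 0.0715 and 0.0365 in heart, 0.137 and 0.0938 in spleen and 0.124 and 0.151 in ESC (switch score 0.126, adjusted p = 3.38e-06, quasi-binomial test). Cortex, where the gene was most expressed at 123 and 124 TPM, used it least. Of 28 exons compared after PladB 1 was called, with lower inclusion (3.57%, against 6.43% of all autosomal exons). It was a 261 bp exon of Usp9x (chrX:13165272-13165532), which went from 1.00 and 0.999 to 0.860 and 0.829 (adjusted p = 0.000752, quasi-binomial test). A 213 bp form with the same start, with more reads in each library, went from 1.00 and 1.00 to 0.927 and 0.917. Its change of -0.0776 was under the minimum for a call. No X-linked member exon was called between alleles in cortex, heart, kidney, spleen or ESC, where some could be tested. Of all autosomal exons, between 0.188% (ESC) and 1.99% (kidney) were called in these tissues. Both retained introns on it lay in Usp11. The one between the exons that end at 20716953 and start at 20717755 had PSI of 0.163 and 0.137 in DMSO and 0.0441 and 0.0642 after PladB, and fell by 0.0958 (adjusted p = 0.000159), under the minimum of 0.1 for a call. The other, between 20712443 and 20712837, had 0.0147 and 0.0126, then 0.0265 and 0.0356 (adjusted p = 0.111).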
